A study of Mus musculus with 12 samples.

Results

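The cytosolic ribosomal protein genes encode the protein subunits of the ribosome that translates nuclear mRNA. They were taken as the genes whose mouse symbol is Rpl or Rps followed by a number and an optional a, l, x or y, together with Rplp0, Rplp1, Rplp2 and Rpsa, at a mean of at least 10 CPM (counts scaled to a common library size) over the 12 libraries. The kinases named Rps6k and the pseudogenes named -ps were left out. Of 83 genes that matched the symbols, 77 reached the level: 46 of the large and 31 of the small subunit. All 77 were among the 13250 genes tested, out of 55416 in the table. The level separated the members widely: Rps29, the lowest member, had a mean of 86.5 CPM, and Rpl6l, the highest gene left out, 2.52 CPM.

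RNA-seq was done on C2C12 cells, an established mouse myoblast line that fuses into myotubes when serum is withdrawn, in 4 groups of 3 biological replicates. KO DM was the line labelled Mapk14 knockout (Mapk14-/-) after 5 days in differentiation medium, DMEM with 2% horse serum. WT DM was the wild-type line in the same medium for the same time. KO GM and WT GM were the knockout and wild-type lines kept for the same 5 days in growth medium, DMEM with 10% fetal bovine serum. Mapk14 encodes p38 alpha, a stress-activated kinase required for full myogenic differentiation. How the gene was edited, and whether the KO line was 1 clone or several, is not given in the sources used here. KO and WT below are the labels.

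Ribosomal protein mRNAs are among the most abundant and most evenly produced mRNAs of a growing cell, since a ribosome holds a single copy of most of its proteins. In vertebrates they begin with a C followed by an unbroken run of pyrimidines, the 5′ terminal oligopyrimidine (TOP) motif, through which mTORC1 and the RNA-binding protein LARP1 set their translation and stability. Myoblasts that leave the cell cycle and fuse are known to lower the making of new ribosomes.

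The TOP motif is shown for the members below because it is the sequence feature this gene family is known by. In the RefSeq starts of the build GRCm38.p6, 57 of the 77 members were matched, with 68 annotated starts. The motif searched was C at the first annotated base, followed by at least 4 letters that are each C or T, on the sense strand only. Of the members' 68 starts, 13 met it, which is 19.1%, against 823 of all 32851 starts, or 2.51%. Lines show 15 bases before the annotated start and the first 15 bases from it. Capitals mark the pyrimidine run, whose first letter is the annotated start. They lie at chr9:120571502-120571531 on the plus strand (Rpl14), chr2:39005117-39005146 on the minus strand (Rpl35), chr11:114668565-114668594 on the plus strand (Rpl38), chr7:141447636-141447665 on the plus strand (Rplp2), chr2:180257364-180257393 on the plus strand (Rps21), chr3:90213634-90213663 on the minus strand (Rps27) and chr4:86857353-86857382 on the minus strand (Rps6). These are the members with a matching start whose values are described further below.
Rpl14: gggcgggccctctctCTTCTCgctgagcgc
Rpl35: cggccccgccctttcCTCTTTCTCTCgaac
Rpl38: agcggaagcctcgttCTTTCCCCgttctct
Rplp2: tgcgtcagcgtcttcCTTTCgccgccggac
Rps21: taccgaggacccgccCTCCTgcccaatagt
Rps27: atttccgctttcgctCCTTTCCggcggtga
Rps6: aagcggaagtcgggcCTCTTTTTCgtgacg
In all 7 windows the letter just before the annotated start is itself C or T. A start annotated 1 or a few bases off therefore hides or shortens a run, and no match says only that these letters do not stand at the annotated base.

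The libraries held 8821669 to 11536396 counts and 16039 to 16677 detected genes. No difference between the genotypes in the RNA of the targeted gene passed the test, so its level does not check the labels. Mapk14 had 93.7, 89.9 and 84.4 CPM in KO DM, against 93.8, 91.1 and 88.6 CPM in WT DM, and 130.2, 136 and 137 CPM in KO GM, against 130.0, 135 and 108 CPM in WT GM. Its log2 fold change was -0.03 ± 0.08 (adjusted p = 0.822) in DM and 0.11 ± 0.08 (adjusted p = 0.35) in GM by edgeR. The 7 muscle and myoblast markers were Myod1, Myf5, Des, Cdh15, Itga7, Myog and Pax7. Their summed level was 1463 to 1600 CPM in KO DM and 3835 to 3931 in WT DM. In growth medium it was 497 to 622 CPM in KO GM and 1732 to 1910 in WT GM. Endothelial, epithelial and neural marker lists summed to at most 1.70 CPM in any library. The 4 leukocyte markers summed to 24.5 to 28.9 CPM in KO DM, 15.9 to 18.4 in WT DM, 33.6 to 40.9 in KO GM and 29.3 to 43.6 in WT GM. Of these markers Ptprc and Adgre1 were at 0 counts, Csf1r was called in no comparison, and Cd14, a receptor for bacterial lipopolysaccharide, was lower in DM than in GM in KO cells (-0.67 ± 0.14) and in WT cells (-1.90 ± 0.15) and higher in KO DM than in WT DM (1.19 ± 0.16). The part of these markers in the members' changes was not tested. Replicate 3 of KO GM and replicate 3 of WT GM stood farther from the other replicates of their groups than any other library did. The members' counts and shares, the counts over most other gene lists (an alternative chosen after seeing the data) and several single genes whose call turned are also given without both.

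Ribosomal protein mRNA took a smaller share of the libraries in differentiation medium than in growth medium in both genotypes. The members held 4.25, 3.95 and 4.08% of counts in KO DM, and 5.96, 5.61 and 5.19% in KO GM. In WT cells they held 4.93, 4.50 and 4.35% in DM, and 5.73, 5.43 and 5.66% in GM. All 6 DM libraries lay below all 6 GM libraries. In DM the 3 KO libraries also lay below the 3 WT libraries, while in GM the genotypes overlapped.

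The share averaged 4.10 ± 0.149% in KO DM, 4.59 ± 0.303% in WT DM, 5.58 ± 0.386% in KO GM and 5.61 ± 0.155% in WT GM (SD, n = 3 each). DM minus GM was -1.25 percentage points over both genotypes, which had p = 0.005 in a 2-sided exact permutation test within genotypes, the smallest p that test allows. Within KO cells the difference was -1.49 points and within WT cells -1.01 points, each at p = 0.1, the smallest an exact permutation test of 3 against 3 can give. KO minus WT was -0.499 points in DM (exact permutation p = 0.1) and -0.0252 points in GM (exact permutation p = 0.9). Without replicate 3 of both GM groups the differences between the media were -1.69 points in KO and -0.989 points in WT cells, and KO GM minus WT GM was 0.199 points, the opposite sign (exact permutation p = 0.667). KO minus WT over both media was then -0.150 points. With all libraries it was -0.262 points (exact permutation p = 0.15), and -0.356 points without KO GM replicate 1 (exact permutation p = 0.03). The share of the mitochondrially encoded genes, 2.79 to 3.91% of counts over the libraries, averaged 3.62% in KO DM, 3.65% in WT DM, 3.14% in KO GM and 3.28% in WT GM, and its part in the members' share was not tested. In bulk RNA, fewer cells of a type and less of an RNA per cell cannot be told apart. The large subunit genes averaged 2.61% of counts in KO DM, 2.89% in WT DM, 3.53% in KO GM and 3.51% in WT GM, and the small subunit genes 1.49, 1.70, 2.05 and 2.10% in the same groups.

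**Figure D1:**
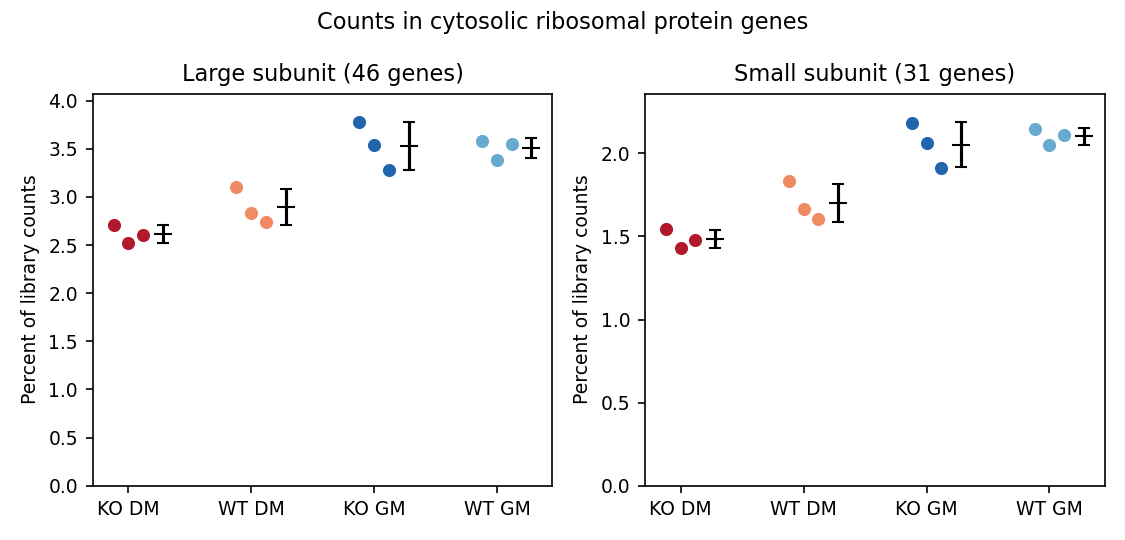
Percent of each library's counts in the 46 large subunit genes (left) and the 31 small subunit genes (right), one point per library, with the mean and SD of n = 3 beside each group. All 6 DM libraries lie below all 6 GM libraries for the members as a whole, and the lowest means are those of KO DM, 2.61% and 1.49%.

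All 77 members fell in KO cells in DM relative to KO cells in GM. In WT cells 53 of the 77 fell in DM. The changes were small and alike across genes, with a median log2 fold change of -0.48 over the members in KO cells and -0.25 in WT cells, against medians of -0.00 and -0.01 over all genes tested. The 2593 other genes at least as abundant as the lowest member had a median of -0.03 in KO cells, with 789 lower and 591 higher.

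A gene was called at an adjusted p under 0.05 in edgeR's quasi-likelihood test over all genes. In KO cells 19.8% of all genes tested were called lower and 20.8% higher. In WT cells 14.8% were called lower and 18.4% higher. No member was called higher in either genotype by edgeR, DESeq2 or limma-voom, and 0 were higher at an unadjusted p under 0.05. The WT count was 28 without WT DM replicate 3, and without replicate 3 of both GM groups the counts were 75 in KO cells and 51 in WT cells. In that last fit 20.4% of all genes tested were called lower in KO cells and 18.5% in WT cells. In 40 of the 77 members all 6 DM libraries lay below all 6 GM libraries, against 8.51% of all genes tested. Within KO cells the media were apart in this way for 75 members, against 25.1% of all genes, and within WT cells for 56, against 20.6%. By subunit, 29 of 46 large and 24 of 31 small subunit genes fell in WT cells. The summed muscle markers named above were higher in DM in both genotypes. Of these 7 genes, 5 were called higher in KO cells and 6 in WT cells, and 0 lower. The part of the markers in the members' changes was not tested.

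The genes of the P stalk, the flexible arm of the large subunit that recruits the elongation factors, fell in DM in both genotypes. Rplp0, which anchors the stalk, had 2207, 2018 and 2023 CPM in KO DM, against 2985, 2946 and 2796 CPM in KO GM, and 2453, 2268 and 2184 CPM in WT DM, against 3018, 2923 and 2776 CPM in WT GM. Every DM library lay below every GM library. The log2 fold change of Rplp0 was -0.48 ± 0.07 (adjusted p = 5.32e-06) in KO cells and -0.34 ± 0.07 (adjusted p = 0.000453) in WT cells by edgeR. For its partners the changes in KO and WT cells were -0.35 ± 0.08 and -0.27 ± 0.08 for Rplp1, and -0.51 ± 0.07 and -0.39 ± 0.07 for Rplp2. The call of Rplp1 in WT cells was lost in 2 of 25 alternatives, with an adjusted p of up to 0.0616.

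The largest fall in both genotypes was that of Rps27l, a paralog of Rps27 that is induced by p53 in human cells. Rps27l had 136, 121 and 142 CPM in KO DM, against 265, 219.8 and 196 CPM in KO GM. In WT cells it had 164, 139 and 143 CPM in DM, against 218, 211 and 249 CPM in GM. No DM library reached the lowest GM library in either genotype. Its log2 fold change was -0.77 ± 0.10 (adjusted p = 4.98e-06) in KO cells and -0.60 ± 0.10 (adjusted p = 9.56e-05) in WT cells by edgeR. Rps27 itself changed by -0.59 ± 0.09 in KO cells and -0.37 ± 0.09 in WT cells.

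Rps19, the gene most often mutated in human Diamond-Blackfan anaemia, had 289, 277 and 268 CPM in KO DM, against 469.9, 465 and 438 CPM in KO GM. In WT cells Rps19 had 392, 349.8 and 347 CPM in DM, against 499, 459 and 469 CPM in GM. The media did not overlap, and within DM the 3 KO libraries were also the 3 lowest. The log2 fold changes were -0.72 ± 0.07 (adjusted p = 4.24e-08) in KO cells and -0.39 ± 0.07 (adjusted p = 0.000162) in WT cells by edgeR. Rpl38, whose mutation in the Tail-short mouse alters the axial skeleton, had 76.3, 61.5 and 71.0 CPM in KO DM, against 100.3, 118 and 111 CPM in KO GM, and 80.2, 77.7 and 65.4 CPM in WT DM, against 107, 99.5 and 109 CPM in WT GM. Here too all DM libraries were below all GM libraries. Rpl38 changed by -0.66 ± 0.09 (adjusted p = 4.97e-06) in KO cells and -0.50 ± 0.09 (adjusted p = 0.000174) in WT cells by edgeR.

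Further members with the largest falls in KO cells were Rpl26, an exit tunnel protein, and Rps24, another Diamond-Blackfan gene in humans. Rpl26 had 122, 117 and 131 CPM in KO DM, against 243, 175 and 159 CPM in KO GM, a log2 fold change of -0.64 ± 0.16 (adjusted p = 0.00677) by edgeR. KO GM replicate 1 stood far above the other replicates. Rps24 changed by -0.61 ± 0.10 (adjusted p = 3.25e-05) in KO cells by edgeR, with 505, 504 and 549.6 CPM in DM, against 931, 749 and 701 CPM in GM. In WT cells neither was called, with log2 fold changes of -0.23 ± 0.16 for Rpl26 and -0.21 ± 0.10 for Rps24 and overlapping replicates.

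In WT cells the largest falls after Rps27l were those of Rps29, Rpl38, Rpl18 and Rps21. Rps29, a zinc-binding protein of the small subunit head, had 73.5, 74.2 and 69.3 CPM in WT DM, against 115, 102 and 104 CPM in WT GM, a log2 fold change of -0.57 ± 0.10 (adjusted p = 0.000172) by edgeR. Rpl18, of the large subunit, had 601, 537 and 530.0 CPM in WT DM, against 853, 762 and 684 CPM in WT GM (-0.46 ± 0.08). Rps21, of the small subunit, had 342, 282 and 293 CPM in WT DM, against 406, 381 and 453 CPM in WT GM (-0.44 ± 0.09). For all 3 genes the WT media were apart. Their KO values were -0.46 ± 0.10, -0.53 ± 0.08 and -0.47 ± 0.09 on the log2 scale. The calls of the 5 largest falls in each genotype held in every alternative run.

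**Figure D2:**
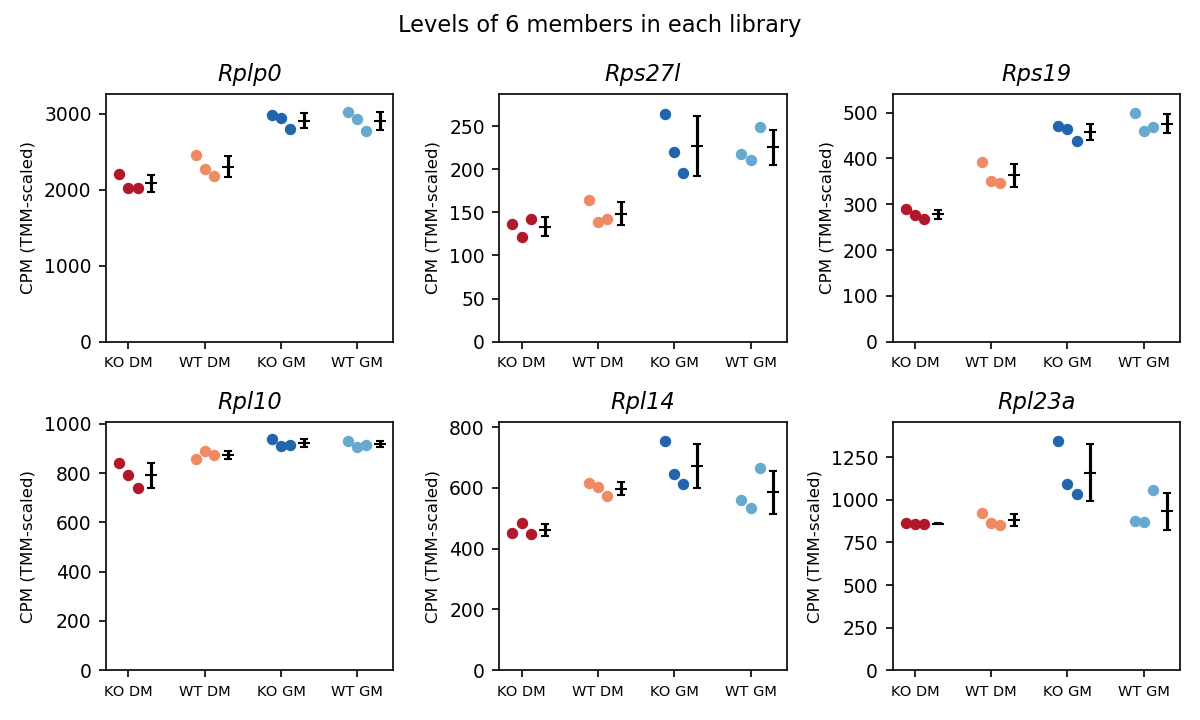
Level of 6 members in each library as CPM scaled by TMM, one point per library, with the mean and SD of n = 3 beside each group and axes starting at 0. Rplp0, Rps27l and Rps19 show DM libraries below GM libraries in both genotypes, Rpl10 shows the smallest KO response, Rpl14 overlaps between the WT media, and Rpl23a is highest in KO GM.

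Members with roles outside the ribosome were also lower by value in DM in both genotypes. Rpl5 and Rpl11 bind the smallest rRNA of the large subunit and, when free of ribosomes, the p53 regulator Mdm2. Rpl11 fell in both genotypes, with changes of -0.51 ± 0.08 in KO and -0.37 ± 0.08 in WT cells on the log2 scale. Rpl5 had 712, 693 and 729.8 CPM in KO DM, against 1075, 952 and 851 CPM in KO GM, and fell (-0.43 ± 0.08), while in WT cells it was not called (-0.13 ± 0.08, adjusted p = 0.206 by edgeR). Rps6, the substrate of the S6 kinases downstream of mTORC1, had 792, 741 and 742 CPM in KO DM, against 1201, 1112 and 1043 CPM in KO GM, and 969, 941 and 871 CPM in WT DM, against 1098, 1073 and 1174 CPM in WT GM. Both media were apart in both genotypes, and the changes were -0.56 ± 0.07 (adjusted p = 1.65e-06) in KO and -0.27 ± 0.07 (adjusted p = 0.00598) in WT cells by edgeR. Rpsa, also known as the laminin receptor, fell in KO cells (-0.36 ± 0.07, adjusted p = 0.000413 by edgeR), with a WT value of -0.18 ± 0.07 (adjusted p = 0.0571), the WT call being made in 11 of 25 alternatives. Rps3, which lines the mRNA entry channel, changed by -0.55 ± 0.09 and -0.35 ± 0.09. Rpl13a, part of an interferon-response complex in human monocytes, fell in KO cells (-0.40 ± 0.08), and its WT value of -0.12 ± 0.08 was not called. For Rpl3, at the peptidyl transferase centre, the KO and WT values were -0.51 ± 0.08 and -0.24 ± 0.08, both called, the WT call being lost in 2 alternatives.

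Rpl10 and Rpl41 were among the smallest changes in KO cells. Rpl10, which joins the large subunit late in its assembly, had 841, 793 and 739.6 CPM in KO DM, against 940.1, 910.4 and 913 CPM in KO GM. The groups were apart, but the log2 fold change was only -0.22 ± 0.07 (adjusted p = 0.0105) by edgeR, and the call was lost without KO DM replicate 2 or 3, with an adjusted p of up to 0.0801. In WT cells Rpl10 had 856, 889 and 873 CPM in DM, against 928, 905 and 915 CPM in GM (-0.07 ± 0.07, not called). Rpl41, the smallest ribosomal protein, changed by -0.27 ± 0.09 in KO and -0.25 ± 0.09 in WT cells, and each call was lost in 3 alternatives, with an adjusted p of up to 0.164 in KO cells and 0.136 in WT cells. Rpl10a, of the L1 stalk of the large subunit, changed by -0.43 ± 0.08 in KO cells and -0.22 ± 0.08 in WT cells, the WT call being lost in 6 alternatives.

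**Figure D3:**
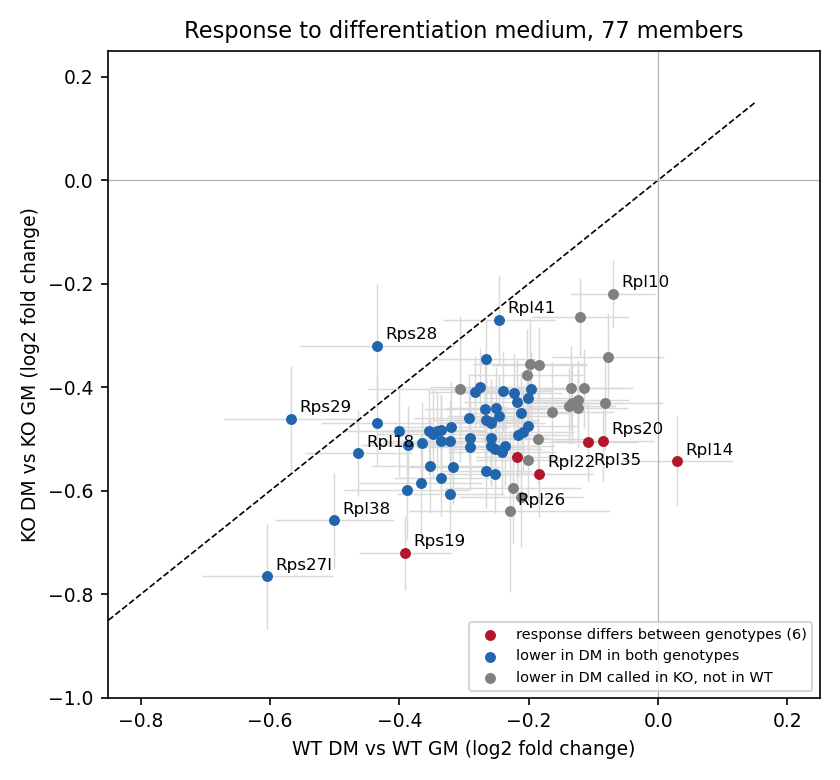
Log2 fold change of each of the 77 members in DM relative to GM in KO cells (vertical) against WT cells (horizontal), with SE as grey bars and equality as a dashed line; red marks the 6 members called in the interaction, blue those called lower in both genotypes and grey those called in KO cells and not in WT cells. The points of 75 of the 77 members lie below the line, and Rps28 and Rps29 lie above it.

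In differentiation medium, the relative level of ribosomal protein mRNA was lower in the KO-labelled cells than in WT cells: 42 of the 77 members were lower in KO DM than in WT DM, 21 of each subunit. The median log2 fold change over the members was -0.24, against -0.02 over all genes tested. Of all genes tested, 17.4% were called lower and 13.6% higher. By edgeR, DESeq2 and limma-voom 0 members were called higher, and 0 were higher at an unadjusted p under 0.05. In 52 members all 3 KO DM libraries lay below all 3 WT DM libraries, against 26.2% of all genes tested. The count of 42 was 16 without KO DM replicate 2 and 21 without WT DM replicate 1. In the fit without WT DM replicate 1 the median was -0.16 and 2 members were called higher. Replicate 3 of both GM groups enters this comparison only through the filter, scaling, spread and adjustment shared by all libraries. Without both, 50 members were lower, against 19.6% of all genes tested. The muscle markers were lower in KO DM than in WT DM, as given above, and their part in this difference was not tested.

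Rps26, which lies at the mRNA exit channel, differed most between the genotypes in DM. It had 355, 326 and 330.5 CPM in KO DM, against 459, 457 and 429 CPM in WT DM, a log2 fold change of -0.41 ± 0.07 (adjusted p = 0.000135) by edgeR. The groups did not overlap. In its named -ps copies Rps26 had a further 41.3% of its own counts, so its value depends on the authors' assignment of shared reads. Rpl22, which also binds the RNAs of other genes outside the ribosome, had 215, 199 and 212 CPM in KO DM, against 297, 266 and 262 CPM in WT DM (-0.40 ± 0.08, adjusted p = 0.000856 by edgeR). Rps19, whose values are given above, changed by -0.39 ± 0.07. Rpl14, of the large subunit, had 452, 484 and 447 CPM in KO DM, against 617, 604 and 572 CPM in WT DM (-0.37 ± 0.09). Rpl24, which forms a bridge between the subunits, had 326, 329.7 and 337 CPM in KO DM, against 464, 419 and 404 CPM in WT DM (-0.37 ± 0.08). For these 5 genes the 3 KO libraries were the lowest, and each call held in every alternative run.

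Rps6 was also lower in KO DM (-0.29 ± 0.07, adjusted p = 0.00347 by edgeR), and so was Rpl3 (-0.34 ± 0.08), as was Rpl5 (-0.26 ± 0.08), although the Rpl5 call was lost in 3 alternatives. Of the P stalk, Rplp2 was lower (-0.22 ± 0.07, adjusted p = 0.0295 by edgeR, lost in 9 of 25 alternatives), while Rplp0 (-0.14 ± 0.07) and Rplp1 (0.10 ± 0.08) were not called. Rps3 (-0.24 ± 0.09) was called, and lost in 18 alternatives. Rpl13a (-0.25 ± 0.08) was lost in 2, and Rps24 (-0.35 ± 0.10) in 3. The values of Rpl11 (-0.16 ± 0.08), Rpl10 (-0.14 ± 0.07), Rpl10a (-0.18 ± 0.08), Rpl41 (-0.19 ± 0.09), Rpl38 (-0.10 ± 0.09), Rpl26 (-0.16 ± 0.16) and Rpsa (-0.07 ± 0.07) did not pass the test.

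In growth medium few members were called between the genotypes. Their median log2 fold change, KO GM relative to WT GM, was -0.02, against -0.00 over all genes tested, and changed sign to 0.05 without replicate 3 of both GM groups. Of the 77 members 4 were called higher, against 10.0% of all genes tested, and 0 lower, against 10.6%. DESeq2 called 5 higher and 0 lower, limma-voom 4 and 0, and at an unadjusted p under 0.05 there were 8 higher and 1 lower.

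The 4 genes called higher in KO GM were Rpl23a, Rpl27, Rps27a and Rpl19. Rpl23a, at the exit of the peptide tunnel, had 1348, 1093 and 1036 CPM in KO GM, against 874, 867 and 1059.8 CPM in WT GM, a log2 fold change of 0.31 ± 0.09 (adjusted p = 0.0159) by edgeR. The groups overlapped, since WT GM replicate 3 stood above KO GM replicate 3. Rpl27 had 815, 779 and 707 CPM in KO GM, against 676, 589 and 642 CPM in WT GM (0.27 ± 0.09, adjusted p = 0.0449 by edgeR). Rps27a, made as a fusion with ubiquitin, had 744, 679 and 606 CPM in KO GM, against 550.3, 533 and 606 CPM in WT GM (0.26 ± 0.08, adjusted p = 0.02 by edgeR). Rpl19, a further bridge between the subunits, had 1324, 1232 and 1082 CPM in KO GM, against 1025, 983 and 1061 CPM in WT GM (0.24 ± 0.08, adjusted p = 0.0392 by edgeR). For Rpl27 and Rpl19 the groups did not overlap, and for Rps27a replicate 3 of both groups stood at nearly the same level. The calls were lost in 4, 18, 5 and 10 of 25 alternatives for Rpl23a, Rpl27, Rps27a and Rpl19. The count was 0 when only the GM libraries were fitted, and 0 without KO GM replicate 1, WT GM replicate 1 or WT GM replicate 2. It was 1 without KO GM replicate 2, 2 without KO DM replicate 1 or replicate 3, 7 without KO GM replicate 3 and 8 without replicate 3 of both GM groups. In that last fit 11.9% of all genes tested were called higher, so the 8 members are near the share of all genes.

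**Figure D4:**
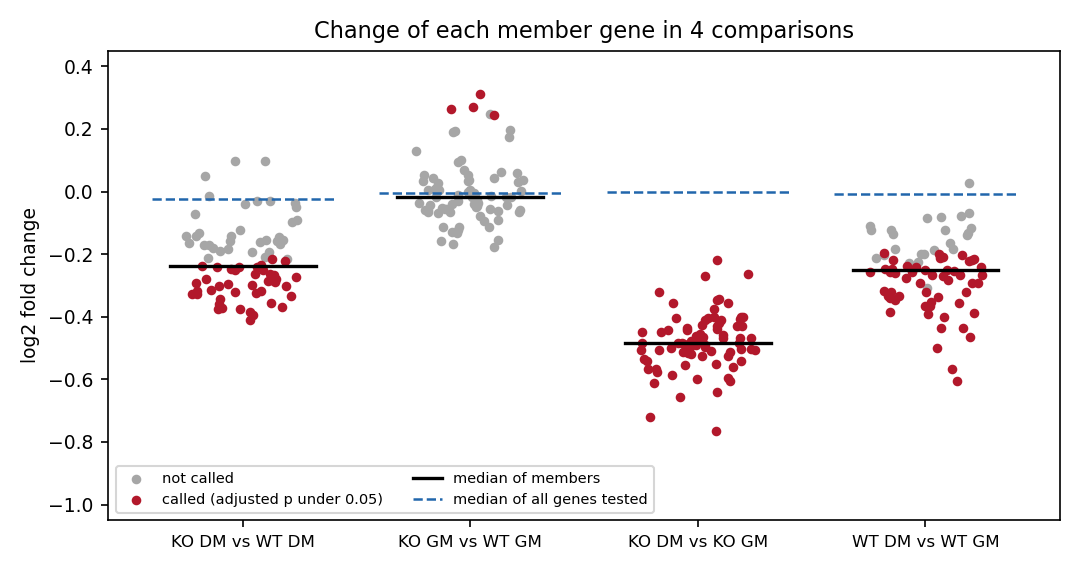
Log2 fold change of each of the 77 members in 4 comparisons, with called genes in red, the median of the members as a black line and the median of all genes tested as a dashed line. The members' medians are -0.24, -0.02, -0.48 and -0.25 from left to right.

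The response to differentiation medium was larger in KO than in WT cells for 75 of the 77 members by value, but few single genes passed the test of that difference. The interaction, the KO response minus the WT response, had a median of -0.21 over the members, against -0.01 over all genes tested. Of the 77, 6 were called lower, against 5.25% of all genes tested, and 0 higher, against 3.61%. DESeq2 called 8 lower and limma-voom 5, both with 0 higher, and at an unadjusted p under 0.05 there were 33 lower and 0 higher. The count depended on which GM libraries entered: it was 37 without replicate 3 of both GM groups, when 9.94% of all genes tested were called lower, 21 without KO GM replicate 3 and 13 without WT GM replicate 3. Leaving out any of the other libraries gave 1 to 3. The median was -0.27 without replicate 3 of both GM groups. Total counts as library size gave 2 genes, and over all called genes moved the share called higher to 57.8%, against 40.7% with TMM. Being called in KO and not in WT cells, as 24 members were, does not by itself show a difference between the genotypes. Over the 77 members the KO and WT responses had a Pearson r of 0.44 and a Spearman rho of 0.39, a description across genes that share libraries.

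Rpl14 gave the largest difference. It had 452, 484 and 447 CPM in KO DM, against 755, 647 and 614 CPM in KO GM, and 617, 604 and 572 CPM in WT DM, against 559, 533 and 666 CPM in WT GM. It fell in KO cells (-0.54 ± 0.09), where the media were apart, and did not pass the test in WT cells (0.03 ± 0.09, adjusted p = 0.835 by edgeR), where they overlapped. The interaction was -0.57 ± 0.12 (adjusted p = 0.00496) by edgeR and held in every alternative run, with an adjusted p of up to 0.0262. Rps20, of the small subunit head, had 438, 399 and 448 CPM in KO DM, against 666, 603 and 552 CPM in KO GM, and 584, 521 and 503 CPM in WT DM, against 577, 552 and 577 CPM in WT GM. The WT libraries overlapped and the KO libraries did not, with an interaction of -0.42 ± 0.11 (adjusted p = 0.0211) by edgeR. Rpl35, near the exit of the peptide tunnel, had 476, 455 and 452 CPM in KO DM, against 698, 658 and 608 CPM in KO GM, and 591, 547 and 527 CPM in WT DM, against 577, 558 and 661 CPM in WT GM. It showed the same arrangement, with overlap in WT cells alone, and an interaction of -0.40 ± 0.11 (adjusted p = 0.0252) by edgeR.

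The other 3 were Rpl22, Rps19 and Rps12, the last a small subunit protein that in the fly takes part in cell competition. The interaction was -0.38 ± 0.12 (adjusted p = 0.0452) for Rpl22, -0.33 ± 0.10 (adjusted p = 0.0444) for Rps19 and -0.32 ± 0.09 (adjusted p = 0.0351) for Rps12 by edgeR. Rps12 had 745, 690.3 and 702 CPM in KO DM, against 1069, 1043 and 984 CPM in KO GM, and 936, 944 and 881 CPM in WT DM, against 1058, 1081 and 1071 CPM in WT GM. Its media were apart in both genotypes. The calls of Rps20, Rpl35, Rpl22, Rps19 and Rps12 were lost in 6, 10, 17, 18 and 15 of 24 alternatives, with adjusted p of up to 0.108, 0.0964, 0.161, 0.147 and 0.14.

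Several ribosomal proteins have a paralog, and some of these paralogs can replace their partner in the ribosome. Rpl3l, the form of Rpl3 in adult striated muscle, had 5 counts over the 12 libraries: 0 in KO DM, 2 in WT DM, 0 in KO GM and 3 in WT GM. Rpl10l, Rpl39l, Rpl32l and Rps4l had 0 counts. Rpl22l1, which replaces Rpl22, had 161, 124 and 141 CPM in KO GM, against 77.1, 84.8 and 121 CPM in WT GM, and was higher there (0.59 ± 0.14, adjusted p = 0.00941 by edgeR, 0.0583 when only the GM libraries were fitted). In DM its values were 121, 123 and 129 CPM in KO DM, against 129.9, 115 and 126 CPM in WT DM (0.01 ± 0.14, not called). Its medium response was -0.19 ± 0.14 (adjusted p = 0.303) in KO and 0.39 ± 0.14 (adjusted p = 0.0517) in WT cells by edgeR. Without replicate 3 of both GM groups it rose in WT cells (0.61 ± 0.09, adjusted p = 1.31e-06), the value in KO GM relative to WT GM was 0.81 ± 0.10 (adjusted p = 7.22e-08) and the interaction -0.78 ± 0.12 (adjusted p = 1.93e-05), all called. Rpl22 itself fell in KO cells (-0.57 ± 0.08), and its WT value of -0.18 ± 0.08 was not called. Rpl36al, the retrogene copy of Rpl36a, was called in no comparison, with -0.11 ± 0.09 in KO and -0.08 ± 0.09 in WT cells, where Rpl36a fell (-0.49 ± 0.09 and -0.35 ± 0.09). Rpl7l1 fell in both genotypes (-0.29 ± 0.07 and -0.26 ± 0.07), and Rpl7 in KO cells (-0.34 ± 0.09) but without a call in WT cells (-0.08 ± 0.09). Rps4x, the X-linked form, fell in both genotypes (-0.47 ± 0.07 in KO and -0.26 ± 0.07 in WT cells).

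The symbol pattern misses genes that also encode ribosomal proteins. Of 5 such genes tested, 4 fell in KO cells and 3 in WT cells, against 19.8% and 14.8% of all genes tested. Fau, the fusion that yields Rps30, had 393, 349.9 and 383 CPM in KO DM, against 528, 552 and 501 CPM in KO GM, and 513, 421 and 417 CPM in WT DM, against 589.6, 527 and 547 CPM in WT GM. The media did not overlap in either genotype, with changes of -0.49 ± 0.08 and -0.30 ± 0.08. Rps3a1 changed by -0.38 ± 0.10 and -0.27 ± 0.10, both called, the WT call being lost in 11 alternatives. Rack1, a WD-repeat scaffold on the small subunit that docks signalling kinases, had 1669, 1556 and 1357 CPM in KO GM, against 1327, 1262 and 1165 CPM in WT GM, and was higher in KO GM (0.29 ± 0.08, adjusted p = 0.0125 by edgeR, lost in 3 alternatives). Its medium response was -0.45 ± 0.08 in KO cells and, not called, -0.18 ± 0.08 in WT cells.

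Many ribosomal protein genes have processed copies in the genome, and reads shared with them can be split. Counts in genes named as their -ps copies were found for 44 members. For 5 members they came to over 10% of the member's own counts: Rps2 (347%), Rpl3 (53.4%), Rps26 (41.3%), Rps15a (22.6%) and Rpl15 (12.5%). The named copies together held 0.251% of counts in KO DM, 0.287% in WT DM, 0.350% in KO GM and 0.353% in WT GM, the same order of groups as the members' own share. The values of these 5 members are uncertain in this respect, as are those of close paralog pairs.

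The response was also set beside transcript length. The length was that of the first-numbered annotated protein-coding transcript of each gene, which need not be its main mRNA. By it Rpl5 had 2045 bases and Rps19 1284. Such lengths were available for 74 members. In KO cells the 25 shortest (up to 597 bases) and the 25 longest (from 914 bases) had medians of -0.48 and -0.48, and all in both groups fell. In WT cells the medians were -0.29 and -0.25, with 19 of the 25 shortest and 15 of the 25 longest called lower. The Spearman correlation of length with the log2 fold change over members was 0.10 in KO and 0.29 in WT cells, against 0.01 and 0.08 over the 11812 genes with a length, given as a description. Members with a start that met the TOP letters had medians of -0.51 in KO and -0.29 in WT cells (13 members), and matched members without one -0.48 and -0.25 (44 members).

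Other genes needed to make and run ribosomes were described from lists of their known roles. Ribosome biogenesis factors fell in most cases in KO cells: 34 of 40 fell in KO cells (median -0.54) and 22 of 40 in WT cells (median -0.24), where 1 rose. Of all genes tested 19.8% fell in KO cells and 14.8% in WT cells. Utp4, of the small subunit processome, changed by -0.78 ± 0.11 in KO cells, and Nop56, a core protein of the box C/D snoRNPs that guide rRNA methylation, by -0.77 ± 0.10. Gar1, of the box H/ACA snoRNPs, gave the largest WT fall of the list, -0.56 ± 0.13. Ncl, Gnl3 and Ddx21, all nucleolar proteins, had a more negative response in KO than in WT cells, with interactions of -0.47 ± 0.12 (adjusted p = 0.0153), -0.47 ± 0.14 (adjusted p = 0.0391) and -0.39 ± 0.12 (adjusted p = 0.0364) by edgeR. These calls were lost in 4, 16 and 15 of 24 alternatives. In KO GM 4 of the 40 were higher than in WT GM, a share equal to the 10.0% of all genes tested, among them Npm1, a nucleolar chaperone, at 691, 548 and 455 CPM in KO GM, against 408, 391 and 455 CPM in WT GM (0.43 ± 0.11). The Npm1 call was lost in 2 of 25 alternatives. Without replicate 3 of both GM groups its value was 0.62 ± 0.09 (adjusted p = 6.41e-07) by edgeR, and its interaction, not called with all 12 libraries, was -0.64 ± 0.11 (adjusted p = 5.29e-05). Then 13 of the 40 were higher in KO GM, 10 were lower in KO DM than in WT DM, against 5 with all libraries, and 15 were lower in the interaction, against 3. In that fit 11.9% of all genes tested were higher in KO GM, 19.6% lower in KO DM and 9.94% lower in the interaction.

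RNA polymerase I genes, which transcribe rRNA, fell in 6 of 11 cases in KO cells and 5 of 11 in WT cells. Polr1b, its second-largest subunit, changed by -0.73 ± 0.12 and -0.33 ± 0.12. Host genes of small nucleolar RNAs, several of which are TOP RNAs themselves, fell in 11 of 14 cases in KO cells (median -0.68) and 7 of 14 in WT cells (median -0.47), where 1 rose. Among them Snhg15 changed by -0.85 ± 0.14 and -0.95 ± 0.14. The mitochondrial ribosomal proteins, which serve the other ribosome of the cell, fell about as often as all genes did but seldom rose. In KO cells 19 of 78 fell and 2 rose (median -0.11), against 19.8% and 20.8% of all genes. In WT cells 10 fell and 1 rose (median -0.09), against 14.8% and 18.4% of all genes. Mrps6 was among those that fell, with -0.77 ± 0.13 in KO and -0.53 ± 0.13 in WT cells.

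Among translation initiation factors and associated genes, 15 of 29 were lower in KO DM than in WT DM, 14 were not called, and the median was -0.20, against 17.4% of all genes called lower. Among the elongation factors 2 of 8 were lower and 6 were not called. Of the initiation factors, Eif2s2, a subunit of eIF2, was at -0.62 ± 0.09. In KO cells 22 of 29 fell in DM, against 19.8% of all genes tested, and in WT cells 6 of 29, against 14.8%. Pabpc1, the poly(A)-binding protein, whose mRNA is a TOP mRNA, had 1069, 1082 and 986 CPM in KO DM, against 1763, 1776 and 1554 CPM in KO GM, and 1251, 1388 and 1208 CPM in WT DM, against 1629, 1579 and 1551 CPM in WT GM. It fell in both genotypes, and its interaction was -0.39 ± 0.10 (adjusted p = 0.0193) by edgeR, lost in 6 alternatives. Of 8 elongation factors 6 fell in KO cells and 2 in WT cells, with Eif5a at -0.63 ± 0.08 and -0.30 ± 0.08. Of 13 other mRNAs known to carry a TOP motif 9 fell in KO cells and 2 in WT cells, the WT count being near the 14.8% of all genes. In KO DM 7 were lower than in WT DM and 1 was higher. Tpt1, which encodes the abundant protein TCTP, had an interaction of -0.45 ± 0.10 (adjusted p = 0.00801) by edgeR, lost in 0 of 24 alternatives.

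Among regulators of this gene family some rose and others fell. Deptor, an inhibitor of mTOR, had 129.6, 137 and 155 CPM in KO DM, against 76.2, 69.7 and 74.2 CPM in KO GM, and 130.1, 152 and 172 CPM in WT DM, against 76.5, 77.4 and 80.7 CPM in WT GM. It rose in DM by 0.94 ± 0.09 in KO and 0.95 ± 0.09 in WT cells. Sesn1, which reports leucine shortage to mTORC1, rose too (0.75 ± 0.12 and 0.67 ± 0.12), while Eif4ebp1, a translation repressor that mTORC1 switches off, fell (-0.76 ± 0.08 and -0.49 ± 0.08). Sesn2, another sestrin with this role, fell (-0.28 ± 0.11 and -0.58 ± 0.11), and so did Ddit4, an inhibitor of mTORC1 (-0.34 ± 0.10 and -0.66 ± 0.10). Over the mTORC1 list of 22 genes 4 rose and 6 fell in KO cells, and 4 rose and 4 fell in WT cells. These counts are near the shares of all genes tested, 20.8% higher and 19.8% lower in KO cells and 18.4% and 14.8% in WT cells. Myc, which drives transcription of ribosomal genes, had 65.4, 62.7 and 60.1 CPM in KO DM, against 131, 138 and 113 CPM in KO GM, and 65.3, 70.2 and 58.7 CPM in WT DM, against 112, 113 and 98.7 CPM in WT GM. Myc fell in both genotypes, with changes of -1.02 ± 0.09 and -0.74 ± 0.09. Of its network of 10 genes 4 rose and 3 fell in KO cells, and 3 rose and 4 fell in WT cells.

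Without replicate 3 of both GM groups, the falls in KO cells over these lists numbered 36 of 40 biogenesis factors, 22 of 29 initiation factors, 6 of 8 elongation factors, 11 of 14 host genes, 10 of 13 other TOP mRNAs and 21 of 78 mitochondrial ribosomal proteins. The falls in WT cells numbered 27, 9, 2, 7, 3 and 15 in the same lists. In that fit 20.4% of all genes tested fell and 24.3% rose in KO cells, and 18.5% fell and 21.1% rose in WT cells. With all libraries 19.8% fell and 20.8% rose in KO cells, and 14.8% fell and 18.4% rose in WT cells. In the interaction 11 initiation factors were then lower, against 6 with all libraries. Of all genes tested 9.94% were then lower in the interaction, against 5.25% with all libraries. In the mTORC1 list 7 rose and 5 fell in KO cells and 4 rose and 5 fell in WT cells, and the KO value of Ddit4 was no longer called, at -0.23 ± 0.10 (adjusted p = 0.0561) by edgeR. Among single genes that gained a WT call for the medium response were Rpsa (-0.24 ± 0.06, adjusted p = 0.00315), Rack1 (-0.24 ± 0.07, adjusted p = 0.00367) and, upward, Eif2s2 (0.26 ± 0.07, adjusted p = 0.00435) by edgeR. Eif3i, Larp1, Mrps18b, Nme1 and Tsr1 also gained one downward, and Naca, Rpl22l1, Rps6kb1 and Vdac2 upward. Rpl27, Rps27a, Rps3a1 and Mrps11 lost theirs, with adjusted p of 0.0764, 0.0638, 0.0648 and 0.0876 by edgeR.

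**Figure D5:**
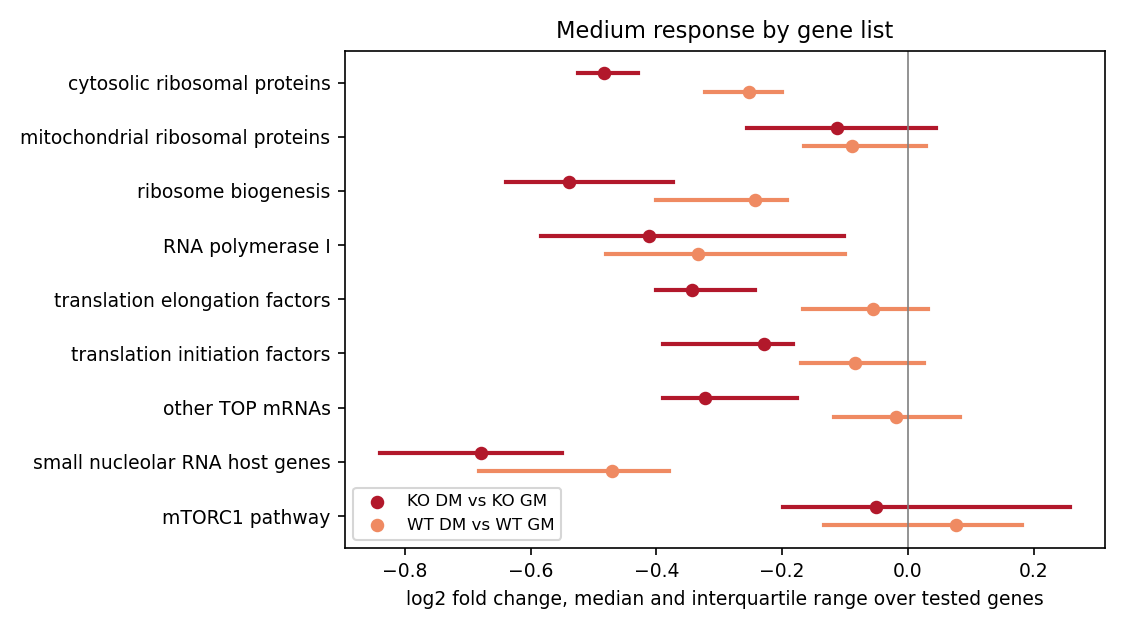
Median (point) and interquartile range (bar) of the log2 fold change in DM relative to GM for 9 gene lists, with KO cells above WT cells in each row. The cytosolic ribosomal proteins have the narrowest bar in KO cells around -0.48, and the mitochondrial ribosomal proteins lie at -0.11 and -0.09.

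Among the genes outside the family whose log2 CPM followed the members' share of counts most closely over the 12 libraries were Denr (Pearson r 0.988), Ifrd1 (0.984), Pold4 (0.980) and Eef1e1 (0.974). Denr, a factor for recycling and reinitiation of ribosomes, had 71.4, 65.4 and 71.8 CPM in KO DM, against 141, 124 and 102 CPM in KO GM, and 86.9, 85.1 and 78.6 CPM in WT DM, against 136, 121 and 125 CPM in WT GM. These genes were picked from all genes tested for this likeness, and the libraries they are compared over fall into 2 media.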

How the data were processed

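RNA was measured in 12 C2C12 libraries, 3 biological replicates in each of 4 groups, taken from the labels, which give 1 batch date for all. The authors deposited raw counts, whole numbers for each Ensembl gene. The build was GRCm39, and RSEM 1.3.3, STAR 2.7.1a, DESeq2 1.40.2 and R 4.3.1 are the tools named, per the submitters' processing notes. Neither the counting tool nor annotation and strandedness is given in the sources used here. Values of overlapping genes, paralogs and processed copies therefore depend on how shared reads were assigned. A further 4 columns, all empty, were not used. Of 55416 gene IDs, 52083 matched a symbol.

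Counts were fitted in R 4.3.3 with edgeR 4.0.16: filterByExpr left 13250 genes, library sizes were scaled by TMM, and 1 robust quasi-likelihood model of all 12 libraries gave 5 contrasts with 2-sided tests. P-values were adjusted by Benjamini and Hochberg's method over all genes tested, and a gene was called under 0.05. Values are TMM-scaled CPM, and changes are on the log2 scale with their SE, computed as the absolute change over the square root of F. Rose, fell, higher and lower are used of called genes, or of values where so stated. Replicates are separate cultures only as far as the labels say so, and p-values measure the spread between these samples. Shares of counts were compared by exact permutation tests. The fit was also run on simulated counts of independent genes, all with the same spread. That run held no outlying libraries and says nothing on how stable the counts of members are. Alternatives were other scalings, filters and tools (DESeq2 1.42.0, limma-voom 3.58.1), a replicate block, leaving out libraries and other memberships.

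The members and the gene lists were chosen with earlier results of these data known. Named were the 5 largest rises and 5 largest falls among called members in each contrast, a panel of members and paralogs chosen by role, up to 4 called genes of each related list, the 5 genes most like the members' share, and Mapk14. Some genes this rule names are not reported here. Rps12 was added after its value was seen, as the 6th called gene of the interaction. Lengths came from the first-numbered protein-coding transcript of each gene in GENCODE, GRCm38, and sequences from RefSeq, GRCm38.p6. At totals of 8821669 to 11536396 counts, replicates of a group differed by more than counting error over all genes tested. For single genes, Rps29 in WT DM among them, counting error can be as large as the replicate spread.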

Additional observations from a re-analysis of the deposited data

Results flagged for a closer look

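For 6 members the response to differentiation medium differed between the genotypes by edgeR's interaction test, the KO response minus the WT response on the log2 scale. The values were -0.57 for Rpl14, -0.42 for Rps20, -0.40 for Rpl35, -0.38 for Rpl22, -0.33 for Rps19 and -0.32 for Rps12. The share called was 6 of 77, near the 5.25% of all genes tested called lower. Rpl14 kept its call in all 24 alternatives, while those of Rps20, Rpl35, Rpl22, Rps19 and Rps12 were lost in 6, 10, 17, 18 and 15 of them. In these 6 genes KO DM was lower than WT DM, with log2 fold changes of -0.37 ± 0.09 for Rpl14, -0.32 ± 0.08 for Rps20, -0.27 ± 0.08 for Rpl35, -0.40 ± 0.08 for Rpl22, -0.39 ± 0.07 for Rps19 and -0.37 ± 0.07 for Rps12, all called. KO GM and WT GM were not called different in any of them, at 0.20 ± 0.09 for Rpl14, 0.09 ± 0.08 for Rps20 and 0.13 ± 0.08 for Rpl35. Without replicate 3 of both GM groups, Rpl14 (0.35 ± 0.08, adjusted p = 0.000507) and Rpl35 (0.25 ± 0.07, adjusted p = 0.00973) were higher in KO GM than in WT GM by edgeR.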

How the results depend on the processing

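No called value changed sign. The uncalled difference between KO GM and WT GM did: the members' median was -0.02 with all libraries, -0.07 to 0.03 over the fits that leave out 1 library and 0.05 without replicate 3 of both GM groups, and the share of counts differed by -0.0252 percentage points, -0.212 to 0.173 and 0.199. For the members as a group, 471 of the recomputed values stayed, 34 moved and 1 became stronger. A share of counts stayed if it kept its side of the test, and a count if within 1.5 times. A median stayed if it shifted by less than the SE expected from the spread between replicates. Most moved values belonged to the interaction count of 6 members: 3 with upper-quartile factors, 2 with total counts, 3 with a stricter filter, 3 with the named -ps counts added to their members (an alternative chosen after seeing the data), 37 without replicate 3 of both GM groups, and 1 to 21 over the fits that leave out 1 library. The 4 members higher in KO GM than in WT GM were 2 with total counts, 2 without robust dispersion, 0 with only the libraries compared, 8 without replicate 3 of both GM groups, and 0 to 7 over the fits that leave out 1 library. Over those fits the members lower in KO DM than in WT DM numbered 16 to 44, those higher 0 to 2, and their median was -0.26 to -0.16. The falls in DM numbered 72 to 77 in KO cells and 28 to 60 in WT cells. KO minus WT over both media in the share of counts was -0.356 to -0.163 percentage points. Without replicate 3 of both GM groups, 11.9% of all genes tested were higher in KO GM than in WT GM and 9.94% were lower in the interaction. The causes of the moved values were not tested. Over single genes and contrasts, 693 values lost a call, 291 gained one and 15384 did neither.

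Over all genes tested, the deviations of same-numbered replicates from their group means correlated at -0.085 to 0.186, and those of other replicates at -0.259 to 0.21. That does not decide pairing for the members alone. Replicate 1 held their highest share of counts in each group: 4.25% in KO DM, 4.93% in WT DM, 5.96% in KO GM and 5.73% in WT GM. With a replicate block the members called lower were 52 in KO DM relative to WT DM, 77 in KO DM relative to KO GM, 57 in WT DM relative to WT GM and 16 in the interaction, and 6 were higher in KO GM than in WT GM.

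With 3 libraries a group, the exact permutation test of the share of counts cannot reach a p under 0.1 in a single comparison.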
